A study of Mus musculus with 12 samples.

Results

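The kinesin genes (symbols Kif followed by a number) and the centrosomal protein genes (Cep followed by a number) were examined for called peaks of the histone demethylases Jmjd2a and Jmjd2c. Members were found by symbol alone, and the symbol rule itself uses no measured value. Of 11874 gene names in the deposited peak files, 64 matched, made up of 30 Kif and 34 Cep names. A gene without any peak near it is never named in those files, so shares were taken over the 40 Kif and 38 Cep genes of a RefSeq table, 78 in all. A gene was counted as bound when a start site named for it lay within 1000 bp of a peak.

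The peaks come from chromatin immunoprecipitation with sequencing in mouse leukaemic granulocyte-macrophage progenitors (L-GMP) transformed with MLL-AF9, a fusion oncogene of acute leukaemia. The cell lines were derived from leukaemic mice of strain C57BL/6 and grown with 20% serum and 10 ng/ml IL-3. All libraries share the genotype Jmjd2a/b/cf/f;Rosa26::CreERT2, that is, conditional alleles of the 3 demethylases and a tamoxifen-activated Cre at Rosa26, so untreated control cells carry these alleles too. Of the 12 libraries in 8 groups, Jmjd2a and Jmjd2c have 1 untreated (Ctrl) library and 1 after 96 h in 500 nM 4-hydroxytamoxifen (OHT), and H3K9me3 and H3K36me3 have 2 per condition. The sources used here do not say how many lines or mice stand behind the libraries. The files hold 8977 Jmjd2a and 10521 Jmjd2c peaks as positions only, with no height, score or value per library. Depth and replicate spread are therefore unknown, the libraries behind each list are not stated, and OHT and both histone marks were not analysed here. All values below are counts and lengths from 1 peak list per protein. Their intervals cover counting error over genes, and genes are not replicates of a condition.

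Kinesins are motor proteins that use ATP to walk along microtubules or to take them apart. One set of them builds the mitotic spindle, moves chromosomes and completes cytokinesis, and another carries vesicles, organelles and ciliary cargo. Cep proteins build and duplicate centrioles, hold the paired centrosomes together, form the appendages that dock the mother centriole to the membrane, and make up the base of the cilium. Many spindle kinesin genes are periodically expressed in dividing cells, and the promoters of such genes often carry a cell cycle genes homology region (CHR) and CCAAT boxes. Jmjd2a and Jmjd2c remove methyl groups from lysine residues of histone H3 and are found mainly at active promoters.

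The promoters below carry the contrasts described in the results. They run from 250 bases before to 50 after the most upstream start in the RefSeq promoter table (assembly GRCm38.p6, whose primary chromosomes are those of mm10). They are written 5′ to 3′ on the gene's strand. At some members, among them Kif14, Kif2c and Kif27, that start lies downstream of the 5′ end of the RefSeq gene. Capitals mark exact motif matches, and a match on the opposite strand appears as its reverse complement. The CHR was searched for as TTTGAA on both strands of each promoter. The box bound by the factor NF-Y was searched for as CCAAT in the same way. The third motif, the core of the site of E2F factors, was GCGGGAA. Of the genes with a RefSeq promoter, Kif16b and Cep41 have the widest Jmjd2a peak among members of their group with both proteins, Kif11 and Cep63 the widest Jmjd2c peak among those without Jmjd2a, and Kif12 and Cep135 come first by name among those with neither. The proteins given for each sequence are those called by the rule, at the named start. For Cep135 the printed stretch is not free of peaks: a Jmjd2c peak lies 37 bp from its RefSeq start and reaches into it. Kif21a and Kif26b, which had Jmjd2a alone, and Kif23 and Cep55, which act at the end of cell division, were added after their values were seen.
Kif16b (chr2:142901415-142901714, minus strand, both proteins): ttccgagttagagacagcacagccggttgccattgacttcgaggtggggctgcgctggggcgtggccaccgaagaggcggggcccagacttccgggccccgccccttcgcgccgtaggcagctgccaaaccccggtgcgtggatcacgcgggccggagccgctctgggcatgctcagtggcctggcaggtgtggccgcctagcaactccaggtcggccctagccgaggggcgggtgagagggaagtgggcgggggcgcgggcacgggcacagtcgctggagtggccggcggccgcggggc
Kif11 (chr19:37376132-37376431, plus strand, Jmjd2c alone): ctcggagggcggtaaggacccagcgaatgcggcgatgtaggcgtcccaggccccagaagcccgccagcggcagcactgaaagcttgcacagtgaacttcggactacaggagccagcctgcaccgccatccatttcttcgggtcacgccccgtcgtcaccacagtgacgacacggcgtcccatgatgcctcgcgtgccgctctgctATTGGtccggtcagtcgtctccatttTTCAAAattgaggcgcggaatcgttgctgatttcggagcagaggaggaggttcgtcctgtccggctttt
Kif23 (chr9:61946750-61947049, minus strand, both proteins): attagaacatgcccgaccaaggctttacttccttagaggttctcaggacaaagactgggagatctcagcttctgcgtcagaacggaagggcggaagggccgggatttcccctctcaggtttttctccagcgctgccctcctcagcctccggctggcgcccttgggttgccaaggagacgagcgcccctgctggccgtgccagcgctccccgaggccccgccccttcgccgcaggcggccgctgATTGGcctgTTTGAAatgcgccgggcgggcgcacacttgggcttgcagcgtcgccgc
Kif21a (chr15:91049902-91050201, minus strand, Jmjd2a alone): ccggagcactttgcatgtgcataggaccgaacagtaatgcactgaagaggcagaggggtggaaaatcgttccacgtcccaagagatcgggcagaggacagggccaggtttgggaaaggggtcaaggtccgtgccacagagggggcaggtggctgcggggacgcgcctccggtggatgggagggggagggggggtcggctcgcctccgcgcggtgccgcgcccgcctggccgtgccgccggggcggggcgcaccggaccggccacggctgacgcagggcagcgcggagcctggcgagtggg
Kif26b (chr1:178528875-178529174, plus strand, Jmjd2a alone): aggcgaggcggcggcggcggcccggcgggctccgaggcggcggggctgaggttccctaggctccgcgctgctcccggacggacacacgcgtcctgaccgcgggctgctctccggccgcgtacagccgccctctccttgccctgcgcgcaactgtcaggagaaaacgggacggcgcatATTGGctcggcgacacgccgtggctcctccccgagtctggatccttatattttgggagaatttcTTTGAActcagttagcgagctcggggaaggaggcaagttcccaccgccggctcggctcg
Kif12 (chr4:63172082-63172381, minus strand, neither protein): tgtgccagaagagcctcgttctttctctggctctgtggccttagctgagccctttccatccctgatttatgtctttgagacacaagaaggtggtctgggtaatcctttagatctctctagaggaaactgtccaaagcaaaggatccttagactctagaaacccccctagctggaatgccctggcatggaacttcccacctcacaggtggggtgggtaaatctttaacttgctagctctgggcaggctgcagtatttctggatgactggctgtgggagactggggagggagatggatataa
Cep41 (chr6:30693700-30693999, minus strand, both proteins): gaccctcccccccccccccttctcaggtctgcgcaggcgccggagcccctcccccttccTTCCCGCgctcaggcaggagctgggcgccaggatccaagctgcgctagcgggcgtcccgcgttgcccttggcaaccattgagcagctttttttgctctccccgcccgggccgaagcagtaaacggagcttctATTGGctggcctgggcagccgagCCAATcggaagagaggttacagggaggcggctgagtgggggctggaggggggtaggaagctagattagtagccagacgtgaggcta
Cep55 (chr19:38054734-38055033, plus strand, both proteins): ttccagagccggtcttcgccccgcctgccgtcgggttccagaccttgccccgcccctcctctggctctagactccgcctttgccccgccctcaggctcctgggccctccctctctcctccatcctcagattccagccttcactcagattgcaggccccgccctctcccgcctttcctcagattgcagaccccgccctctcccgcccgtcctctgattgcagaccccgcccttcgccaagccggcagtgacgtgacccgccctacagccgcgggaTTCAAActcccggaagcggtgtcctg
Cep63 (chr9:102626075-102626374, minus strand, Jmjd2c alone): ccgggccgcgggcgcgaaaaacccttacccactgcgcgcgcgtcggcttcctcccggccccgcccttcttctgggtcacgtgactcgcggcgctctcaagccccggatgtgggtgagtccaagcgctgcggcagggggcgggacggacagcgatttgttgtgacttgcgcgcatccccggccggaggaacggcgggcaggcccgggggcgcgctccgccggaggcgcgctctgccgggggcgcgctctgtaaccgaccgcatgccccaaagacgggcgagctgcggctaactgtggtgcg
Cep135 (chr5:76588449-76588748, plus strand, neither protein): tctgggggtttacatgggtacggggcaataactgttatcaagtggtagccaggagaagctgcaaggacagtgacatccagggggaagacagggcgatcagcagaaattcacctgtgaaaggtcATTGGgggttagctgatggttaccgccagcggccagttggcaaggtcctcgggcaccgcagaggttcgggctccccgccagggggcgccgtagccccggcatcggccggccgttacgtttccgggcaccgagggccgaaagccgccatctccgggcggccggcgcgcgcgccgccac

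The share of bound genes was higher in both families than over all RefSeq genes, and higher for Cep than for Kif genes. Jmjd2a lay at 18 of 40 Kif genes (45%, exact 95% interval 29.3 to 61.5%) and at 26 of 38 Cep genes (68.4%, 51.3 to 82.5%), against 27.4% of all 26219 RefSeq genes and 33.4% of protein-coding genes without predicted (Gm and Rik) symbols. Jmjd2c lay at 26 Kif genes (65%, 48.3 to 79.4%) and 33 Cep genes (86.8%, 71.9 to 95.6%), against 37.9% of all genes and 46.2% of the protein-coding ones. The Kif interval for Jmjd2a holds the protein-coding share, and the other 3 intervals lie above it. Both proteins were found at 16 Kif genes (40%, 24.9 to 56.7%) and 26 Cep genes (68.4%), against 24.5% of all genes and 30% of protein-coding genes. Here too the Kif interval holds the protein-coding share.

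The 2 families differed by 23.4 percentage points for Jmjd2a (95% Newcombe interval 1.46 to 42.4), by 21.8 points for Jmjd2c (2.7 to 39) and by 28.4 points for both proteins (6.3 to 46.9). Cep was the higher family each time. The order rests partly on Kif genes that the files never name: among named members alone, Jmjd2c lay at 26 of 30 Kif genes (86.7%) and 33 of 34 Cep genes (97.1%), a gap of 10.4 points whose interval (-4.02 to 26.9) includes 0. The corresponding gap for Jmjd2a was 16.5 points (-6.08 to 37.3), and with a peak required to cover the start site itself it was 12.8 points (-9.06 to 33).

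Members fell into unequal combinations. Every Cep gene with Jmjd2a also had Jmjd2c, and Kif21a and Kif26b were the Kif genes with Jmjd2a and no Jmjd2c (2 of 40, 5%, against 2.86% of all genes and 3.46% of the protein-coding ones). Jmjd2c without Jmjd2a was found at 10 Kif genes (25%, 12.7 to 41.2%) and 7 Cep genes (18.4%, 7.74 to 34.3%), against 13.4% of all genes and 16.3% of protein-coding genes. The intervals of both families hold these shares. Neither protein was called at 12 Kif genes (30%) and 5 Cep genes (13.2%), against 59.2% of all genes and 50.3% of protein-coding genes. Of these, 4 (Kif28, Kif4-ps, Cep112os1 and Cep295nl) are counted there because the files do not name them: no start site was available to measure from. Without them the families differed by 24.9 points for Jmjd2a (2.51 to 43.9) and 23.2 points for Jmjd2c (4.86 to 40). The class with neither also depends on the start sites used. With RefSeq starts added, Cep170 and Kif16bos, which the files do not name either, gained both proteins, and Cep135 and Kif7 gained Jmjd2c.

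**Figure D1:**
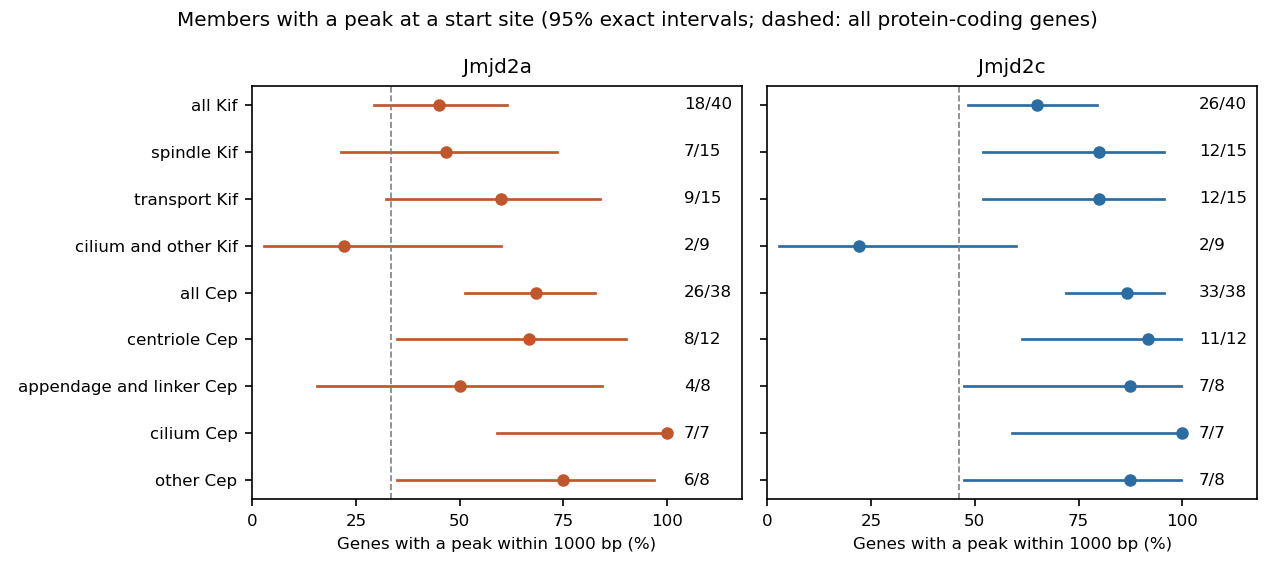
Share of genes with a start site within 1000 bp of a peak (x axis, percent) for each family and each list of members by role (y axis), with Jmjd2a on the left and Jmjd2c on the right. Points are shares, bars are exact 95% intervals over genes, numbers are bound genes of all genes, and the dashed line is the share of protein-coding genes (33.4% and 46.2%). All 7 cilium Cep genes had both proteins, while the 9 cilium and other kinesins had each protein at 2.

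Among the 15 kinesins of the spindle and of cytokinesis, 12 had Jmjd2c (80%, 51.9 to 95.7%) and 7 had Jmjd2a as well (46.7%, 21.3 to 73.4%). The shares of protein-coding genes were 46.2% for Jmjd2c and 33.4% for Jmjd2a, and the Jmjd2a interval holds the latter. The 5 with Jmjd2c alone were Kif11, Kif15, Kif18b, Kif22 and Kif4. Kif11, the motor that pushes spindle poles apart, had a Jmjd2c peak of 2665 bp, the widest at any Kif or Cep gene, reaching from -1287 to 1377 bp around its start (negative values are upstream), and the nearest Jmjd2a peak lay 57624 bp away. Kif15, which can take over from Kif11 at the spindle, had a Jmjd2c peak of 1689 bp. The chromosome-bound motors Kif22 and Kif4 had Jmjd2c peaks of 1839 and 1300 bp, and Kif18b, which shortens astral microtubules, had one of 1521 bp. At these 5 genes the nearest Jmjd2a peak lay between 25094 bp (Kif22) and 131939 bp (Kif4) from the start, so none was a near miss of the 1000 bp window.

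The kinesins of the spindle list with both proteins were Kif14, Kif18a, Kif20a, Kif20b, Kif23, Kif24 and Kif2a. Kif23, a subunit of centralspindlin at the midzone, had a Jmjd2a peak of 725 bp from -19 to 705 bp around its start, inside a Jmjd2c peak of 1437 bp. Kif20b, a motor of late cytokinesis, had wide peaks of both proteins, 1363 bp for Jmjd2a and 1880 bp for Jmjd2c. Kif20a, which carries the chromosomal passenger complex to the midzone, had a Jmjd2c peak of 470 bp, ending 48 bp upstream of the start. It was the narrowest within 1000 bp of a Kif or Cep start named in the files. The Jmjd2a peak of Kif20a, 527 bp wide, crossed the start. Kif18a, which damps chromosome movement at the metaphase plate, had 769 bp of Jmjd2a inside 1344 bp of Jmjd2c. Kif2a, a microtubule-depolymerising kinesin, had 2 Jmjd2a peaks, the wider of 896 bp, inside a Jmjd2c peak of 2142 bp. Kif24, a centriolar kinesin that the list counts with the spindle ones, also had 2 Jmjd2a peaks, of 413 and 675 bp, under 1884 bp of Jmjd2c.

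Kif14, needed for cytokinesis, sat at the edge of the rule. Its Jmjd2a peak of 598 bp ended 987 bp and its Jmjd2c peak of 1156 bp ended 800 bp upstream of the start named in the files, yet both covered the 5′ end of the gene in the RefSeq table. Just outside the window lay Kif7, whose Jmjd2c peak ended 1301 bp from the named start. Of the remaining spindle members, Kif2c, a depolymerase at centromeres, had its nearest Jmjd2c peak 22100 bp and its nearest Jmjd2a peak 50615 bp from the start. Kif2b also had neither protein. The pseudogene Kif4-ps was not named in the files and has no start site in either source, so no distance could be measured.

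**Figure D2:**
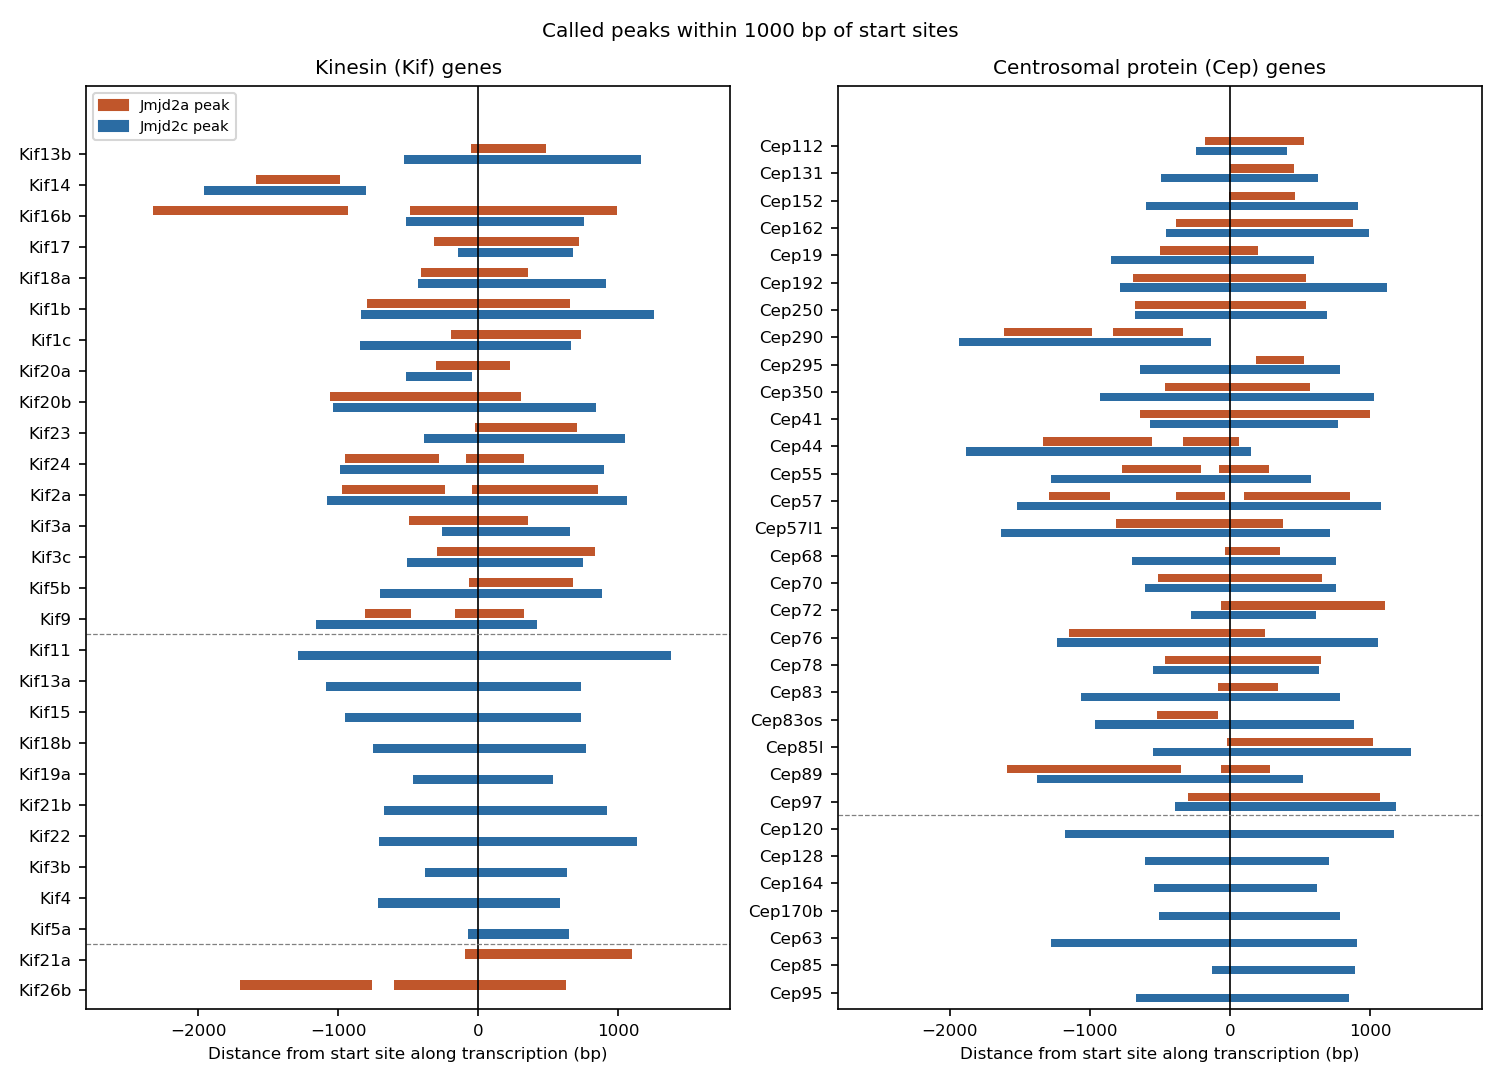
Extent of every Jmjd2a (orange) and Jmjd2c (blue) peak no farther than 1000 bp from a start site for the 28 bound Kif genes (left) and for 32 bound Cep genes (right). The x axis is the distance in bp from the named start site in the direction of transcription, and dashed lines part genes with both proteins, Jmjd2c alone and Jmjd2a alone. Jmjd2a bars lie mostly within the span of the blue bars, and Kif14 and Cep290 are the genes with both proteins whose bars all stop upstream of the start.

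Of the 15 transport kinesins, 12 had Jmjd2c (80%), 9 had Jmjd2a (60%, 32.3 to 83.7%) and 8 had both (53.3%, 26.6 to 78.7%). The shares of protein-coding genes were 46.2%, 33.4% and 30%, and the last 2 intervals hold them. Kif16b, an endosomal motor, had the widest Jmjd2a peak of the Kif genes, 1475 bp, which was wider than its Jmjd2c peak of 1266 bp. A second Jmjd2a peak of 1391 bp, with its near edge 932 bp upstream, lay over the start of Kif16bos, a noncoding gene on the opposite strand. Kif1b, a motor for mitochondria and synaptic vesicle precursors, had 1456 bp of Jmjd2a and 2097 bp of Jmjd2c, and its close relative Kif1c, with the start of Inca1 393 bp away on the other strand, had 924 and 1506 bp. Kif5b, the broadly expressed heavy chain of conventional kinesin, had 741 bp of Jmjd2a inside 1590 bp of Jmjd2c. Its paralogues were called less fully: Kif5a had a Jmjd2c peak of 724 bp and no Jmjd2a, and Kif5c had neither, with 97141 bp to the nearest Jmjd2a peak. Kif5a and Kif5c are known chiefly as neuronal genes.

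The subunits of heterotrimeric kinesin, which moves cargo into cilia, were split as well. Kif3a had 850 bp of Jmjd2a and 915 bp of Jmjd2c, Kif3c had 1126 and 1255 bp, and Kif3b had a Jmjd2c peak of 1019 bp with no Jmjd2a within 50087 bp. Kif13b had 537 bp of Jmjd2a in 1692 bp of Jmjd2c, and Kif13a had 1824 bp of Jmjd2c alone. Kif17, a motor of dendrites and cilia, had 1035 bp of Jmjd2a and 821 bp of Jmjd2c. Kif1a, the axonal vesicle motor, had neither protein within 133534 bp. Kif21a and Kif21b, kinesins that restrain microtubule growth, were called in opposite ways. Kif21a had 1194 bp of Jmjd2a, from -94 to 1099 bp, and no Jmjd2c peak within 141212 bp, while Kif21b had 1593 bp of Jmjd2c at its start and no Jmjd2a peak within 8801 bp.

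Among the 9 cilium, signalling and other kinesins 6 had no call: Kif6, Kif7, Kif12, Kif26a, Kif27 and Kif28, the last without a start site to measure from. That is 66.7% (29.9 to 92.5%), an interval that holds the 50.3% of protein-coding genes. Kif9, a kinesin of motile cilia, was the one with both, 499 bp of Jmjd2a and 1575 bp of Jmjd2c, at a start 264 bp from that of Klhl18 on the other strand. Kif19a, which sets cilium length, had 1004 bp of Jmjd2c. Kif26b, a kinesin without motor activity needed for kidney development, had Jmjd2a peaks of 1229 bp over its start and 943 bp upstream of it, with the nearest Jmjd2c peak 122199 bp away. Kif7, the Hedgehog pathway kinesin, changed status with the start site used: its Jmjd2c peak of 440 bp covers the start given by RefSeq. Kif27, its relative, had Jmjd2c 3615 bp and Jmjd2a 3690 bp upstream of its named start.

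Among the 12 Cep genes of centriole assembly, 11 had Jmjd2c (91.7%) and 8 had both proteins (66.7%), against 46.2% and 30% of protein-coding genes. Cep192 and Cep152, which recruit the kinase Plk4 to the centriole, had 1238 bp and 470 bp of Jmjd2a and 1908 bp and 1513 bp of Jmjd2c. Cep63, the partner of Cep152, had 2184 bp of Jmjd2c and no Jmjd2a within 91053 bp. Cep120, which drives centriole elongation, likewise had Jmjd2c alone, 2352 bp wide, as did Cep85 with 1022 bp. Genes whose products work at one step of centriole duplication did not share one combination of calls. Cep57, a protein of the pericentriolar material, had the widest Jmjd2c peak of the Cep genes, 2600 bp, and 3 separate Jmjd2a peaks of 435, 353 and 757 bp below it. Cep57l1 had 1192 and 2348 bp, and Cep76, which keeps centrioles from duplicating again, 1397 and 2294 bp. Cep97, which caps centrioles with Ccp110, had 1370 bp of Jmjd2a and 1574 bp of Jmjd2c. Cep72 was reversed in size, with 1175 bp of Jmjd2a and 889 bp of Jmjd2c, and the single Jmjd2a peak of Cep295 was 345 bp wide, beginning 187 bp downstream of its start. Cep135, a part of the centriole cartwheel, had neither protein by the rule: its Jmjd2c peak of 1216 bp lay 1763 bp upstream of the named start, but 37 bp from the RefSeq start.

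Of the 8 appendage and linker genes 7 had Jmjd2c (87.5%) and 4 had Jmjd2a too (50%, 15.7 to 84.3%). Jmjd2c lay at 46.2% of protein-coding genes and both proteins at 30%, which the second interval holds. Cep250 and Cep68, which tether the paired centrosomes, had Jmjd2a peaks of 1225 and 393 bp and Jmjd2c peaks of 1375 and 1459 bp. Of the distal appendage genes, Cep83 had 433 and 1848 bp, Cep89 had 2 Jmjd2a peaks of 350 and 1248 bp with 1899 bp of Jmjd2c, and Cep164 had 1164 bp of Jmjd2c and no Jmjd2a within 77789 bp. The subdistal appendage gene Cep128 and Cep170b also had Jmjd2c alone, 1315 and 1298 bp wide. Cep170 was not named in the files. Its RefSeq start is covered by a Jmjd2a and a Jmjd2c peak that the files assign to Sdccag8, so its place among the genes with neither follows from naming.

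All 7 cilium Cep genes had both proteins (exact 95% interval 59 to 100%), the single list of members with no exception. The share was 68.4% over all Cep genes, which this interval holds, and 30% over protein-coding genes. The lists are small and were chosen with earlier results known, so this does not set the cilium genes apart from other Cep genes. Cep41, which is needed for glutamylation of ciliary tubulin, had the widest Jmjd2a peak of the Cep genes, 1646 bp, and a Jmjd2c peak of 1339 bp inside it. Cep290, a protein of the ciliary transition zone mutated in human Joubert syndrome, had Jmjd2a peaks of 502 and 627 bp and 1803 bp of Jmjd2c. All of these lay upstream of the start named in the files, the nearest edges 336 bp (Jmjd2a) and 135 bp (Jmjd2c) from it. Both proteins cover the more upstream start that RefSeq gives, which lies 235 bp from the start of Tmtc3 on the other strand. Cep162 and Cep78 had 1261 and 1110 bp of Jmjd2a, and Cep19 and Cep131 had 704 and 458 bp. The Jmjd2c peaks of these 4 genes ran from 1122 bp at Cep131 to 1448 bp at Cep162. The peak at Cep19 is shared with Pigx, whose start is 62 bp away.

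Of the 8 other Cep genes, Cep112, Cep350, Cep44, Cep55, Cep70 and Cep85l had both proteins (75%, against 30% of protein-coding genes). Cep95 had 1524 bp of Jmjd2c alone. Cep295nl was not named and has no start site to measure from. Cep55, the midbody protein of abscission, had 2 Jmjd2a peaks, the wider of 563 bp, under 1853 bp of Jmjd2c. Cep44 had 777 bp of Jmjd2a, Cep350 1034 bp, Cep85l 1047 bp and Cep70 1176 bp, while Cep112 had 709 bp. Jmjd2c was wider at each of these except Cep112, where it spanned 654 bp. Outside these lists stood 4 genes: the noncoding genes Kif16bos, Cep83os and Cep112os1, and Cep43. Cep83os shares the peaks of Cep83, whose start is 177 bp away, so the 26 Cep genes with both proteins hold 25 separate Jmjd2c peaks.

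**Figure D3:**
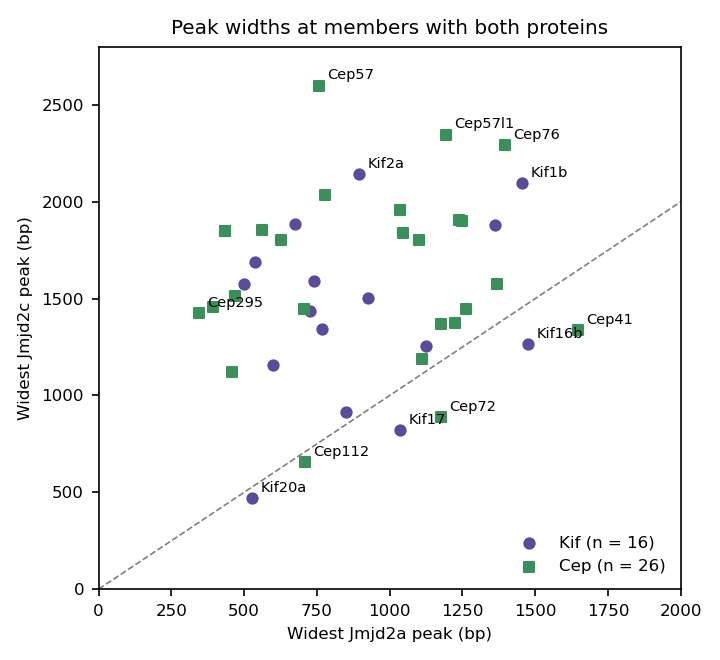
Width in bp of the widest Jmjd2a peak (x axis) against the widest Jmjd2c peak (y axis) for the 16 Kif genes (circles) and 26 Cep genes (squares) with both proteins; the dashed line marks equal widths. Most points lie above the line, and Kif16b, Kif17, Kif20a, Cep41, Cep72 and Cep112 lie below it.

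Jmjd2c regions were longer than Jmjd2a regions at most members. Over the 18 Kif genes with Jmjd2a the widest peak had a median of 873 bp (499 to 1475 bp), and over the 26 Cep genes 1040.5 bp (345 to 1646 bp), beside 761 bp for all 6911 Jmjd2a peaks near start sites. For Jmjd2c the medians were 1513.5 bp (470 to 2665 bp) at 26 Kif genes and 1524 bp (654 to 2600 bp) at 33 Cep genes, beside 1366 bp for all 9053 such peaks. Taking the widest peak of a gene can raise the Jmjd2a medians, but not the Jmjd2c medians, since each member with Jmjd2c had a single peak. The quartiles of all such peaks were 530 and 1061.5 bp for Jmjd2a and 1031 and 1729 bp for Jmjd2c. All member medians lie between them, so these medians do not set the members apart, and the differences were not tested. The Kif genes with Jmjd2c alone had a median Jmjd2c width of 1557 bp, near the 1471.5 bp of Kif genes with both, and for Cep genes the medians were 1315 and 1688.5 bp.

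At each of the 42 genes with both proteins the widest Jmjd2a peak overlapped the Jmjd2c peak. The rule favours this, since both peaks must lie within 1000 bp of a start of the gene. No share over all co-bound genes was taken for the counts in this paragraph, so they describe the members without setting them apart. The widest Jmjd2a peak lay wholly inside the Jmjd2c peak at 9 of 16 Kif genes and 21 of 26 Cep genes, and it was the wider of the 2 at 3 genes of each family. The median ratio of the Jmjd2c width to that of the widest Jmjd2a peak was 1.69 for Kif and 1.83 for Cep. Further Jmjd2a peaks were not scored, and that of Kif16b did not overlap its Jmjd2c peak. A Jmjd2a peak covered the named start at 15 Kif and 21 Cep genes, and Jmjd2c at 14 and 25. More than 1 Jmjd2a peak stood near the start of 5 Kif genes (Kif16b, Kif24, Kif26b, Kif2a and Kif9) and 5 Cep genes (Cep290, Cep44, Cep55, Cep57 and Cep89), whereas every member with Jmjd2c had a single Jmjd2c peak there.

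**Figure D4:**
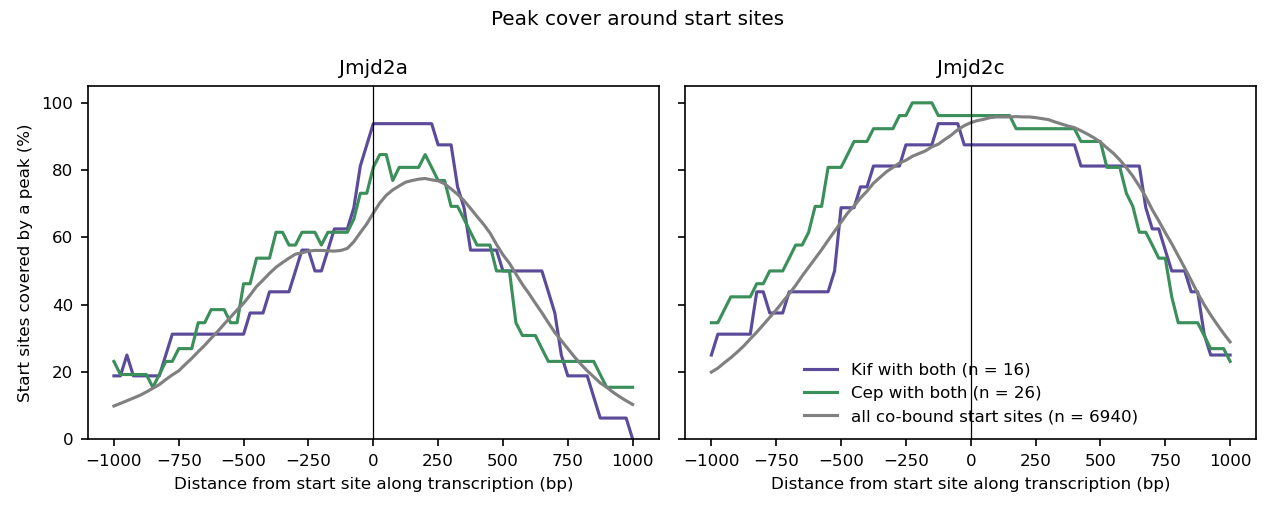
Share of start sites (y axis, percent) covered by a Jmjd2a (left) or Jmjd2c (right) peak at each distance in bp along transcription (x axis), for Kif genes with both proteins, Cep genes with both and all 6940 co-bound start sites. Jmjd2a cover of Kif genes was 93.8% from the start to 225 bp downstream, and Jmjd2c cover of Cep genes reached 100% at -225 bp.

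Around the start, Jmjd2a cover of the 16 Kif genes was 93.8% at the start and at every step to 225 bp downstream. Over the 26 Cep genes it was at most 84.6%, at 25, 50 and 200 bp downstream, and over all 6940 co-bound start sites 77.5%, at 200 bp downstream, so the positions of highest cover were shared. Jmjd2c cover was highest upstream in both families, from -125 to -50 bp for Kif (93.8%) and from -225 to -150 bp for Cep (100%), and at 175 bp downstream over all sites (95.9%). At -500 bp 80.8% of Cep genes and 68.8% of Kif genes were under Jmjd2c, beside 64.5% of all sites. In these small groups 1 gene moves the cover by several points, and the plateaus are flat.

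Paired promoters were counted as well. A start of another gene on the opposite strand lay within 1000 bp upstream at 12 of 31 Cep promoters (38.7%) and 7 of 32 Kif promoters (21.9%). The shares were 12.9% of protein-coding promoters, 22.5% of those with both proteins and 4.8% of those with neither. The Kif share was thus near that of promoters with both proteins. The Cep count includes Cep83 and the noncoding Cep83os, each as the partner of the other. Examples are Cep95 with the RNA helicase gene Ddx5 (67 bp), Cep63 with Anapc13, a subunit of the anaphase-promoting complex (172 bp), Cep57l1 with Sesn1 (706 bp), Cep57 with Fam76b (609 bp), Kif4 with Pdzd11 (124 bp), Kif24 with Nudt2 (300 bp) and Kif15 with 1110059G10Rik (81 bp). At such pairs the peak cannot be assigned to one gene.

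**Figure D5:**
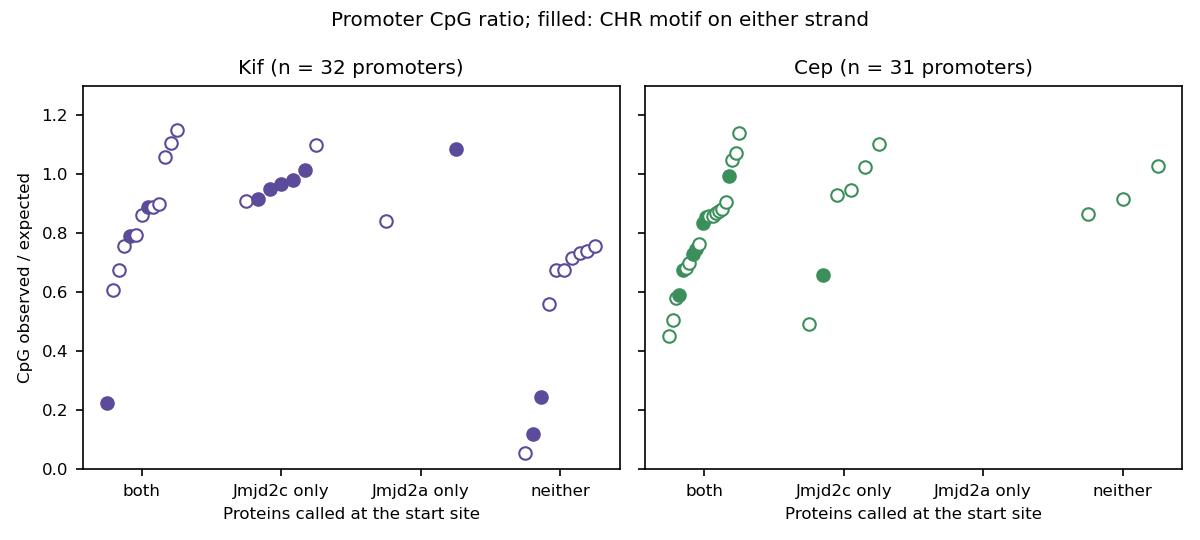
Ratio of observed to expected CpG in the RefSeq promoter (y axis) of 32 Kif genes (left) and 31 Cep genes (right), by the proteins called at the start site (x axis). Each point is a gene, filled where the promoter holds a CHR motif. All 5 filled Kif points with Jmjd2c alone are spindle kinesins, and the Kif genes with neither protein hold the lowest ratio (Kif12, 0.053).

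RefSeq promoters were found for 63 of the 78 genes. The CHR motif TTTGAA was present in 11 of 32 Kif promoters (34.4%) and 8 of 31 Cep promoters (25.8%), beside 16.1% of all promoters and 15.5% of protein-coding ones. It was held by 9 of the 13 spindle kinesins (69.2%) and by 0 of the 11 transport kinesins. Within 25 bp of the start, a limit chosen after the positions were seen, it was found at 7 of the 13 spindle kinesins (Kif11, Kif15, Kif18b, Kif20b, Kif22, Kif23 and Kif4), beside 2.07% of protein-coding promoters. The motif also lay there at Kif26b and at 4 of 31 Cep promoters (12.9%: Cep55, Cep57l1, Cep72 and Cep112), so it was not confined to spindle kinesins. In the sequences above it begins at position -19 from the start of Kif11, on the opposite strand, at position 2 in Kif23 and at position 24 in Cep55, again on the opposite strand. Of the 7 Kif promoters with Jmjd2c alone 5 held CHR, and of the 13 with both proteins 3 did. The shares among all protein-coding promoters were 12.2% with Jmjd2c alone and 10.7% with both, so the motif did not separate these classes at large. A match of 6 letters is a description of sequence and not a binding site.

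The CCAAT box was found in 15 Kif (46.9%) and 14 Cep promoters (45.2%), near the 39.2% of all promoters. Among spindle kinesins 8 of 13 held it, and at Kif23 it ends just before the CHR, as the printed sequence shows. The E2F core GCGGGAA was found in 9 of 31 Cep promoters (29%), namely Cep41, Cep44, Cep57, Cep70, Cep112, Cep128, Cep152, Cep170 and Cep295, and in 3 of 32 Kif promoters (9.38%), beside 5.85% of all promoters and 9.91% of protein-coding promoters with both proteins. No matches to different motifs overlapped among the 85 found.

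Member promoters had higher CpG ratios than promoters at large. The median ratio of observed to expected CpG was 0.818 for Kif and 0.860 for Cep promoters, beside 0.618 for protein-coding promoters, 0.816 for those with both proteins and 0.271 for those with neither. By class the Kif medians were 0.861 with both, 0.967 with Jmjd2c alone and 0.676 with neither. The Cep medians were 0.845, 0.938 and 0.918. Only 3 Cep promoters, those of Cep43, Cep135 and Cep170, stand in that last class. At the RefSeq start, where the ratio was taken, both proteins cover Cep170, and a Jmjd2c peak lies 37 bp from Cep135. The last Cep median is therefore not a value of uncalled promoters. Among Kif genes with neither, Kif7 and Kif16bos likewise have a peak over that start. Kif12, with neither protein, had a ratio of 0.053 and its printed promoter is nearly free of CpG. Kif2c and Kif27, also with neither, had 0.118 and 0.244. Kif1a, Kif5c, Kif6 and Kif26a had neither protein at ratios from 0.561 to 0.740, so a CpG-rich promoter did not always come with a call. Kif14 had 0.226 at the start in the RefSeq promoter table, which its peaks do not reach. At Kif14, Kif2c and Kif27 this start lies downstream of the 5′ end of the RefSeq gene, where no ratio was taken.

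Other peaks were named for members at a greater distance. There were 8 Jmjd2a peaks beyond 1000 bp at 8 genes and 8 Jmjd2c peaks at 6 genes, and 5 of each overlapped a peak of the other protein, beside 31.5% of 2066 far Jmjd2a peaks and 40.2% of 1468 far Jmjd2c peaks in all. The overlapping pairs stood by Cep135 (Jmjd2a at 65763 bp and Jmjd2c at 65591 bp), Cep76 (30109 and 29984 bp), Kif21b (8801 and 8723 bp, in the gene body), Kif27 (3690 and 3615 bp) and Kif7 (7004 and 7281 bp, over Plin1). Jmjd2a alone was named at Kif26b (111577 bp, intron), Cep57l1 (56925 bp) and Cep97 (10747 bp), and Jmjd2c alone at Cep250 (22283 bp), Cep135 (1763 bp) and Kif7 (1301 bp).

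Genes that work beside the members, taken from lists chosen with earlier results known, were mostly called for Jmjd2c, which lay at 46.2% of protein-coding genes, with both proteins at 30%. Of 32 centrosome core genes 31 had Jmjd2c and 21 had both proteins. Plk4, the kinase that starts centriole duplication, had 1898 bp of Jmjd2a and 2057 bp of Jmjd2c, and Nedd1, which targets gamma-tubulin, had 1523 and 1447 bp. The scaffold genes Pcnt and Pcm1 had Jmjd2c alone (837 and 2149 bp), and Tubg2 was the gene with neither. Of 30 spindle and cytokinesis genes 27 had Jmjd2c and 14 had both. Plk1 had 1848 and 2500 bp, whereas the chromosomal passenger genes Aurkb, Incenp, Birc5 and Cdca8 had Jmjd2c alone, from 1378 bp at Cdca8 to 2030 bp at Incenp. Of 11 kinesin partners and relatives 10 had Jmjd2c and 7 both, with Cenpe, the centromere kinesin, at 1607 and 1745 bp and the minus-end motor Kifc1 at neither. Of 23 dynein and dynactin genes 20 had Jmjd2c and 11 both, the heavy chain Dync1h1 with 350 bp of Jmjd2a in 1580 bp of Jmjd2c, and Dynlrb2 had Jmjd2a alone (462 bp).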

How the data were processed

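Jmjd2a and Jmjd2c were immunoprecipitated from MLL-AF9 L-GMP cells and sequenced. The tools were Bowtie 0.12.7, SAMtools and bedtools 2.25.0 and the build mm10, per the submitters' processing notes. The sources used here do not name the peak caller, its threshold or control, or any pooling, so the number and width of peaks rest on unknown settings and depths. The authors deposited peak positions in bp with overlapping features and nearest start sites, and windows around co-bound start sites, per the file headers. Starts count from 0 there and are printed from 1.

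Distances from peaks to start sites, overlaps of at least 1 bp, widths and promoter matches were computed with Python 3.11.15, pandas 2.3.3, numpy 2.4.6, scipy 1.17.1 and matplotlib 3.10.9, and the distance step recovered all 372 simulated start sites. A file row naming several genes does not tell which start belongs to which, so the RefSeq promoter table settled it. No significance test was made: each protein has 1 peak list and no replicate. Shares carry exact (Clopper-Pearson) intervals and differences Newcombe intervals. Every member may be named. Full values were planned for members with Jmjd2a alone, the 5 widest peaks of each protein per family and 25 listed genes. The members and lists were chosen with earlier results of these data known. Of the alternatives tried, RefSeq start sites, protein-coding members only and leaving out members without a start site were added after seeing the data. Some genes that enter the counts are not reported here by name.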

Additional observations from a re-analysis of the deposited data

How the results depend on the processing

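No paired analysis was possible because the files carry no value per library: the replicate numbers of the labels belong to histone libraries without a column here. Keeping the wider 50% of each peak list, in place of a score the files lack, lowered Cep genes with Jmjd2a from 26 to 17, Kif genes with Jmjd2c from 26 to 16, Kif genes with both from 16 to 7 and Cep genes with both from 26 to 14. Windows of 500 and 5000 bp, peaks covering the start, other symbols, RefSeq start sites, protein-coding members and leaving out members without a start site moved counts by less than 1.5 times and reversed no difference between families. The 500 bp window dropped Kif14, the 5000 bp window added Kif27 for both proteins and Cep135 and Kif7 for Jmjd2c, and RefSeq starts added Cep170 and Kif16bos for both and Cep135 and Kif7 for Jmjd2c. The Cep minus Kif interval for Jmjd2a also reached 0 or below with 5000 bp (20.9 points, -0.923 to 40.1), with wider peaks (12.2, -9.04 to 32.1) and with protein-coding members (22.1, -0.33 to 41.5). For both proteins it did so with peaks covering the start (20.3, -1.69 to 39.7), wider peaks (19.3, -0.404 to 37.5) and named members (23.1, -0.127 to 43.6). Depth is unknown, so a gene without a call is one where no peak was called, not one shown to lack the protein.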

Other observations

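Genes that carry a Kif or Cep name only in another naming were left out of the counts. Cep20, a ciliogenesis gene that the files call Fopnl, had both proteins at its start, and Cep126, called AK129341 there, had Jmjd2a without Jmjd2c. Among genes whose older symbols match, Cenpe (once Kif10), Haus2 (once Cep27), Kifbp, Nckap5l and Cdc42ep3 had both proteins, Cntrl (once Cep110) and Cdc42ep2 had Jmjd2c alone, and Stard9 and Gm4961 had neither.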
